A study of Rattus norvegicus with 2 samples.

Results

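Of the 10 genes described here, 9 were abundant in both sequenced samples of a line of rat embryonic stem cells, and the B-type cyclin gene Ccnb2 was not. The genes encode 3 mitotic cyclins (Ccna2, Ccnb1, Ccnb2), their kinase (Cdk1), the other main mitotic kinases (Plk1, Aurka, Aurkb) and 3 parts of the spindle assembly checkpoint (Bub1b, Mad2l1, Cdc20). They were picked by symbol and known role, with earlier results of these data known, from the 23282 genes of the deposited table, in which each had 1 row. The series holds 2 RNA sequencing libraries of wild-type cells, which its design describes as biological replicates. The line, DA-EC8/Rrrc, comes from the Dark Agouti strain, was at passage 30 and is labelled as having a normal karyotype. Both samples are this 1 line, untreated and grown in 2i medium, which holds inhibitors of MEK and GSK3. There is no second condition, so levels are described and no test between groups is made. Whether the samples came from separate cultures is not said, so the spread between them may be technical.

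Entry into mitosis is driven by Cdk1 bound to an A-type or a B-type cyclin, with Plk1 and the Aurora kinases acting on centrosomes, spindle and chromosomes. Until every kinetochore is attached, the mitotic checkpoint complex, made of Bub1b, Bub3, Mad2l1 and Cdc20, holds back the anaphase-promoting complex. Its release lets Cdc20 direct the destruction of cyclin B and of the inhibitor of separase. Transcripts of these genes peak in G2 and mitosis, and embryonic stem cells in culture are known for fast division with short gap phases. In an unsorted culture more cells in G2 and mitosis and more RNA per such cell cannot be told apart.

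Levels are in RPKM, which counts reads relative to the length of the gene model in kb and to each 1000000 reads. Comparison between genes assumes correct gene models and equal treatment of reads that match several places, which could not be checked here. Read totals were sought that make values whole with the locus as gene model. The smallest totals kept were 2991184 reads for replicate 1 and 3050685 for replicate 2. Whether the counted unit is a read or a fragment is not stated in the sources used here. Of genes above 0 in both libraries 3.71% came out whole, at models up to 6000 bp, only with the totals doubled. Doubled totals give the same counts as gene models 2 times as long. This share therefore cannot tell larger totals from longer models, and the true totals are not known. With the totals as found, a model of 2 kb with 3 reads would stand at 0.501 and 0.492 RPKM. The markers of the labelled cell type were present. All 7 pluripotency genes examined were abundant, from Esrrb (70.5 RPKM) and Klf5 up to Tdgf1, Pou5f1 and Utf1 (655 RPKM). Among 11 markers of fibroblasts and feeder cells 4 had means of 1 RPKM or more, the highest being Col1a1 (4.70 RPKM), Col3a1 (2.24 RPKM) and Vim (1.56 RPKM), and Col1a2, Lum and S100a4 were listed at 0 in both. The fibroblast markers summed to 7.42 RPKM in replicate 1 against 13.5 RPKM in replicate 2.

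Many genes of this group share promoter elements that are well known in G2 and M phase transcription. The cell cycle genes homology region (CHR, TTTGAA) is bound by the MuvB complex, and the CCAAT box is bound by NF-Y. Both were searched on both strands in RefSeq promoters of the GRCr8 assembly, each from 250 bases before to 50 bases after the annotated start. Of the 10 genes 8 had an entry, and Ccna2 and Aurkb did not. The bases before the start are printed for 4 genes, to set the low Ccnb2 beside abundant members. The deposited Ccnb2 row lies on the plus strand of its build, rn5. Whether the minus-strand promoter printed here is that of the measured gene model was not tested. They run 5′ to 3′ on the gene's strand, with every CHR and CCAAT match in capitals (ATTGG where the match is on the other strand).

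Ccnb1 (chr2:33655226-33655475, minus strand): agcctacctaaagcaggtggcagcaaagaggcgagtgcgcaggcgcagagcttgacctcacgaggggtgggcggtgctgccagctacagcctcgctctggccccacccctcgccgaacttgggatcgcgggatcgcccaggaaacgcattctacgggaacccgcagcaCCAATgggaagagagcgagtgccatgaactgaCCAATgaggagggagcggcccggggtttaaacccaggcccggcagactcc

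Ccnb2 (chr8:79981659-79981908, minus strand): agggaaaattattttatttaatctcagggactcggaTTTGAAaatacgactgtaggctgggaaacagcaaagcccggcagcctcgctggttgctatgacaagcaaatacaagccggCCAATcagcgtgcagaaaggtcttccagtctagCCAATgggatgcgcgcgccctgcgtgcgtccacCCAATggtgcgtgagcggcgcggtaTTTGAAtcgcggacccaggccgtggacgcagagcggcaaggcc

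Cdk1 (chr20:19265043-19265292, plus strand): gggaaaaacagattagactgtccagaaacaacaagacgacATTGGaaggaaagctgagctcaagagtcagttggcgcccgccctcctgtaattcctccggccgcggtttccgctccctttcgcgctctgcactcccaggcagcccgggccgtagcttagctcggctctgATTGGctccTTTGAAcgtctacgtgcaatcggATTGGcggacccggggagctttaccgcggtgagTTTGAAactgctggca

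Cdc20 (chr5:137255800-137256049, minus strand): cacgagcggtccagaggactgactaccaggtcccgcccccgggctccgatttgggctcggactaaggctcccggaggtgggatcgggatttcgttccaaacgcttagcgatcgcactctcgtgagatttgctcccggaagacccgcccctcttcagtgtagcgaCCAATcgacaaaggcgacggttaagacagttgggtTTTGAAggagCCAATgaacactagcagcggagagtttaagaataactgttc

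In 3 other members the CHR match lay within 28 bases of the annotated start. These are shown as windows of 30 bases on the plus strand, with the match in capitals.

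Plk1 (chr1:186147652-186147681): cccagcgctgcgTTTGAAttcggggaggag

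Bub1b (chr3:126017051-126017080): ggagacgttaaaTTTGAAagttggcggccc

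Mad2l1 (chr4:97236524-97236553): ttcgtagttactTTTGAAccgggtggcggg

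A CHR match was found in 6 of the 8 promoters, against 15.9% of the 16256 promoters of genes in the deposited table and 11.4% of the 8832 among genes detected at 1 RPKM or more (mean of both libraries). At least 1 CCAAT box was found in 5 of 8, against 38.1%, and 2 or more in 4 of 8, against 12.4%. Shares for other cell cycle lists are given further on. Both elements together stood in Ccnb2, Cdk1, Plk1 and Cdc20, against 6.64% of promoters. Ccnb2 had 2 CHR matches and 3 CCAAT boxes, and Cdk1 had the same numbers. In Ccnb2 the boxes followed each other at 33 bp and again at 33 bp, and the pair nearest the start lay 32 bp apart in Ccnb1 and in Cdk1 and 45 bp apart in Cdc20. Ccnb1 held 2 CCAAT boxes and no CHR match in these letters, and Aurka held neither motif. A match is a run of letters and does not show binding.

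**Figure D1:**
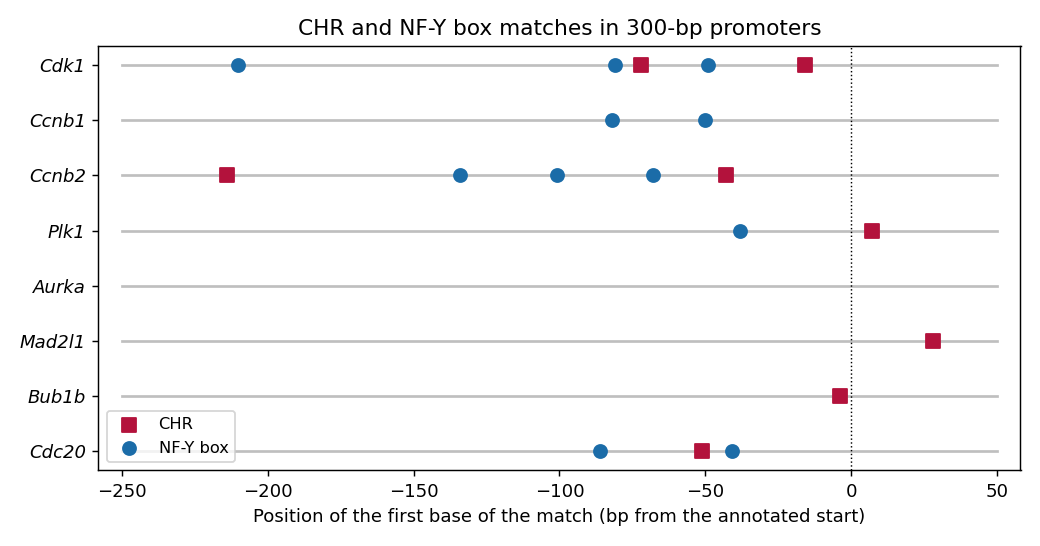
Positions of CHR (squares) and NF-Y box (circles, the CCAAT box) matches in the 300-bp promoters of the 8 members with a RefSeq entry, in bp from the annotated start (dotted line). CHR matches appear in 6 promoters, and Ccnb2 carries as many matches of each kind as Cdk1.

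Taken as a group the members stood well above the typical expressed gene. Their median was 106 and 103 RPKM in the replicates (105 ± 1.90, SD, n = 2). The median of the 10814 detected genes was 16.8 and 16.6 RPKM. On the log2(RPKM + 1) scale the member median lay above that of these genes by 2.58 ± 0.011. All 10 members were detected, against 46.4% of all genes listed. Means of 50 RPKM or more were found for 9 of 10 members, against 9.54% of genes, and of 100 RPKM or more for 5 of 10, against 4.0%. A level of 10 RPKM was passed by the same number as 50 RPKM, 9 of 10, against 29.4%. The members' share of all RPKM was 0.267% in replicate 1 and 0.281% in replicate 2.

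The kinase itself was among the highest members. Cdk1, the kinase that starts mitosis (Entrez gene 54237, rn5 chromosome 20, 22694921 to 22709859), was at 171 and 184 RPKM in replicates 1 and 2. Its mean of 177 ± 9.56 RPKM placed it at rank 396 of all genes. Cdk2, the kinase of S phase and the closest relative examined, was at 32.2 and 26.6 RPKM, so Cdk1 exceeded it 5.31-fold and 6.93-fold.

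The 3 mitotic cyclins differed widely. Ccnb1, the main B-type cyclin (Entrez gene 25203, chromosome 2, 49941586 to 49948770), was the highest member at 250 and 268 RPKM (259 ± 13.3), rank 215 of all genes. Ccna2, which acts in S phase and at mitotic entry (Entrez gene 114494, chromosome 2, 142890984 to 142897317), was at 127 and 128 RPKM (128 ± 1.10). Ccnb2, the second B-type cyclin (Entrez gene 363088, chromosome 8, 76221508 to 76233944), had 10.7 RPKM in replicate 1 against 4.72 RPKM in replicate 2 (7.70 ± 4.22). Its deposited row lies on the plus strand of rn5, whereas its GRCr8 promoter lies on the minus strand. The other members with a promoter entry have the same strand in both builds. What this difference means for the low value was not tested. Ccnb2 was the lowest member in both libraries and the only one below the median of detected genes, with 30.8% of detected genes below it. Ccnb1 lay 23.4-fold above Ccnb2 in replicate 1 and 56.9-fold in replicate 2. On the log2(RPKM + 1) scale this difference was 4.99 ± 0.80 (SD, n = 2), several times its spread. The mean of the 3 cyclins lay below Cdk1 by 0.43 on the log2 scale (-0.43 ± 0.04). That sign rests on Ccnb2, since the mean of Ccna2 and Ccnb1 alone, an alternative chosen after the values were seen, lay above Cdk1 by 0.12. The other cyclins of these families, known mainly from the germ line, were near the floor. Ccna1 was at 1.16 and 1.52 RPKM, from 6 and 8 recovered reads, and Ccnb3 was at 0.844 and 0.311 RPKM. Over all 10 measured paralogs of the members 9 were detected, with a median of 22.5 ± 0.125 RPKM.

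The low value of Ccnb2 rests on few reads and was uneven. Its RPKM values correspond to 40 reads in replicate 1 and 18 in replicate 2 on a gene model of 1251 bp, the shortest that gives whole reads in both. Exact Poisson 95% intervals, which cover counting error only, ran from 7.64 to 14.6 RPKM and from 2.80 to 7.45 RPKM and did not overlap. Replicate 1 was 2.27-fold higher in RPKM, and Ccnb2 was the only member whose ratio of RPKM + 1 passed 1.5-fold. Among all genes at 1 RPKM or more 4.26% passed it, and 5.42% of the 1568 genes at 5 to under 10 RPKM. An exact binomial test of the reads against the library totals gave p = 0.00355, and an adjusted p (Benjamini-Hochberg over 9147 genes) of 0.457. That test compares the 2 libraries, not conditions, and it called 10 genes, 0.109% of those tested. Of the 8 members with recovered reads 0 were called, and 1, Ccnb2, had an unadjusted p under 0.05, against 5.09% of the genes tested. With doubled totals, an alternative chosen after the data were seen, Ccnb2 had 80 and 36 reads and an adjusted p of 0.00572 in the same exact test, which then called 113 of 9614 genes. On the same model of 1251 bp the doubling fixed these counts, and a lower unadjusted p, in advance. Gene models 2 times as long would give the same counts. Whether Ccnb2 passed the threshold thus depended on the read totals and the gene model, which the files do not state. RefSeq names 2 pseudogenes of Ccnb2 (Ccnb2-ps1 and Ccnb2-ps2), 3 of Aurka and 1 of Cdk1. Every row of the deposited table carries the gene type protein-coding, rows with a pseudogene symbol among them. How reads that match such copies were counted is not given in the sources used here, and their part in the low value was not tested.

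**Figure D2:**
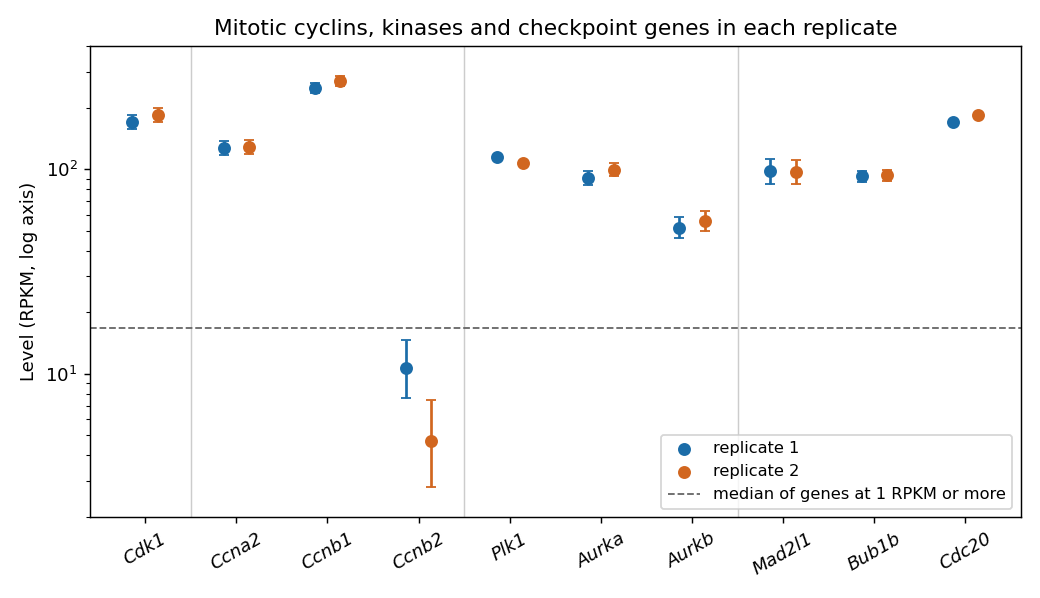
RPKM (log axis) of each member in replicate 1 (blue) and replicate 2 (orange), in the order kinase, cyclins, other kinases, checkpoint genes; bars are exact Poisson 95% intervals where whole reads were recovered, so Plk1 and Cdc20 have none. Every member but Ccnb2 lies above the dashed line, the median of genes at 1 RPKM or more (16.7 RPKM).

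The enzymes that switch Cdk1 on and off were lower than Cdk1, and uneven. All 8 regulators of Cdk1 examined reached 1 RPKM, with a list median of 18.0 ± 0.607 RPKM. The Cdc25 phosphatases remove the inhibitory phosphates from Cdk1. Of them Cdc25a stood at 62.1 ± 1.12 RPKM, Cdc25c at 13.2 ± 0.0707 RPKM and Cdc25b at 4.14 ± 0.392 RPKM. The kinases that add those phosphates, Wee1 and Pkmyt1, were at 45.4 ± 2.52 and 22.8 ± 1.14 RPKM. Mastl (Greatwall), which shields Cdk1 substrates from phosphatase, was at 8.64 ± 0.434 RPKM. Of the small Cdk-binding subunits Cks2 was at 86.8 ± 8.43 RPKM and Cks1b at 10.7 ± 0.432 RPKM.

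Plk1, the polo-like kinase of mitotic entry, centrosome maturation and cytokinesis (Entrez gene 25515, chromosome 1, 199178259 to 199188238), was at 115 and 107 RPKM (111 ± 5.08). It was the highest of the 4 polo-like kinase genes examined. Plk4, which governs centriole duplication, was at 44.4 ± 0.80 RPKM, so Plk1 exceeded it 2.61-fold and 2.38-fold. Plk2 was at 18.9 ± 0.413 RPKM and Plk3, a stress-linked relative, at 2.91 ± 0.547 RPKM.

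Both Aurora kinases of dividing somatic cells were expressed, with Aurka above Aurkb in each library. Aurka, the centrosome and spindle Aurora (Entrez gene 261730, chromosome 3, 176439959 to 176453986), was at 90.4 and 99.5 RPKM (94.9 ± 6.43). Aurkb, the centromere and midzone Aurora (Entrez gene 114592, chromosome 10, 55369546 to 55375203), was at 51.9 and 55.7 RPKM (53.8 ± 2.74). Aurka was 1.74-fold higher in replicate 1 and 1.78-fold in replicate 2, a log2 difference of 0.81 ± 0.02 (SD, n = 2). The groups of values did not overlap. Aurkc, the Aurora kinase of meiosis, was at 1.62 and 1.06 RPKM, from 3 and 2 recovered reads.

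Of 6 partners of the Aurora kinases, all detected, 4 were more abundant than the kinase they act with. The list median was 89.3 ± 5.21 RPKM. Tpx2, which activates Aurka on the spindle, was at 146 ± 2.95 RPKM, 1.64-fold and 1.44-fold above Aurka. Bora, which helps Aurka to activate Plk1, was at 21.1 ± 1.64 RPKM. In the chromosomal passenger complex Aurkb had the lowest level of the 4 subunits. Cdca8 (borealin) was at 122 ± 1.72 RPKM, Birc5 (survivin) at 95.0 ± 9.31 RPKM and the scaffold Incenp at 83.6 ± 1.10 RPKM. Aurkb lay below the mean of these 3 by 0.97 in replicate 1 and 0.81 in replicate 2 on the log2(RPKM + 1) scale (-0.89 ± 0.11). Haspin, whose histone mark recruits the complex to centromeres, was at 8.60 ± 0.636 RPKM.

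Mad2l1 and Bub1b were close to each other and lay below Cdc20 in both libraries. Mad2l1, the checkpoint protein that captures Cdc20 (Entrez gene 297176, chromosome 4, 162316426 to 162322429), was at 97.7 and 97.1 RPKM (97.4 ± 0.370). Bub1b, which encodes BubR1 (Entrez gene 171576, chromosome 3, 116912645 to 116964295), was at 92.5 and 93.3 RPKM (92.9 ± 0.582). Cdc20, the activator of the anaphase-promoting complex and the target of the checkpoint (Entrez gene 64515, chromosome 5, 141050192 to 141054395), was at 170 and 184 RPKM (177 ± 10.1). Cdc20 exceeded Mad2l1 1.74-fold and 1.89-fold. Bub3, the fourth part of the complex and no member of the chosen group, was at 250 ± 2.40 RPKM. From Bub3 down to Bub1b the complex spanned 1.41 in replicate 1 and 1.42 in replicate 2 on the log2(RPKM + 1) scale (1.42 ± 0.0049).

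Relatives of the checkpoint members were lower than them or close to them. Bub1, the kinase related to Bub1b, was at 98.9 ± 1.30 RPKM, 1.08-fold and 1.05-fold above it. Mad2l2, which acts mainly in DNA damage tolerance, was at 26.2 ± 0.162 RPKM, and Mad2l1 exceeded it 3.71-fold and 3.73-fold. Fzr1 (Cdh1), the other activator of the anaphase-promoting complex, was at 57.1 ± 1.71 RPKM, and Cdc20 exceeded it 2.91-fold and 3.29-fold. All 12 other spindle checkpoint genes examined reached 1 RPKM, with a list median of 42.1 ± 3.43 RPKM. After Bub3 and Bub1 the highest was Zwint at 93.3 ± 3.94 RPKM, and the lowest were Mad2l1bp (11.2 ± 0.600 RPKM), which takes part in silencing the checkpoint, and the kinetochore scaffold Knl1 (7.93 ± 0.00517 RPKM). The checkpoint kinase Ttk (Mps1), which was picked with its value known, stood at 72.2 ± 0.560 RPKM.

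In order of mean level the members ran Ccnb1, Cdk1, Cdc20, Ccna2, Plk1, Mad2l1, Aurka, Bub1b, Aurkb, Ccnb2. Of the 9 pairs of neighbours 6 did not overlap between replicates. Cdk1 and Cdc20 could not be ordered, at a log2 difference of 0.0058 ± 0.0045 with overlapping ranges. Mad2l1, Aurka and Bub1b formed a run in which neighbours overlapped. The largest steps were at the lower end, 0.78 ± 0.06 from Bub1b to Aurkb and 2.74 ± 0.80 from Aurkb to Ccnb2.

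Apart from Ccnb2 the members varied little between the libraries. Of 10 members 7 were higher in replicate 2, against 45.9% of genes at 1 RPKM or more, and Ccnb2, Plk1 and Mad2l1 were higher in replicate 1. The median log2 ratio of the members was 0.060 towards replicate 2, and that of detected genes was -0.017. The mean over the members was -0.053, of the opposite sign, since Ccnb2 enters it with -1.03. Without Ccnb2, left out after its value was seen, the median was 0.10 and the mean 0.055. Among the 9 members at 50 RPKM or more the median absolute log2 ratio was 0.10 and the largest 0.14, that of Aurka. The 2057 genes at 50 to under 300 RPKM had a median of 0.068, and 90% of them lay under 0.18. Of these 2057 genes 0.0972% passed 1.5-fold in RPKM + 1. The fibroblast marker sum was also higher in replicate 2, and its part in these small differences was not tested.

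**Figure D3:**
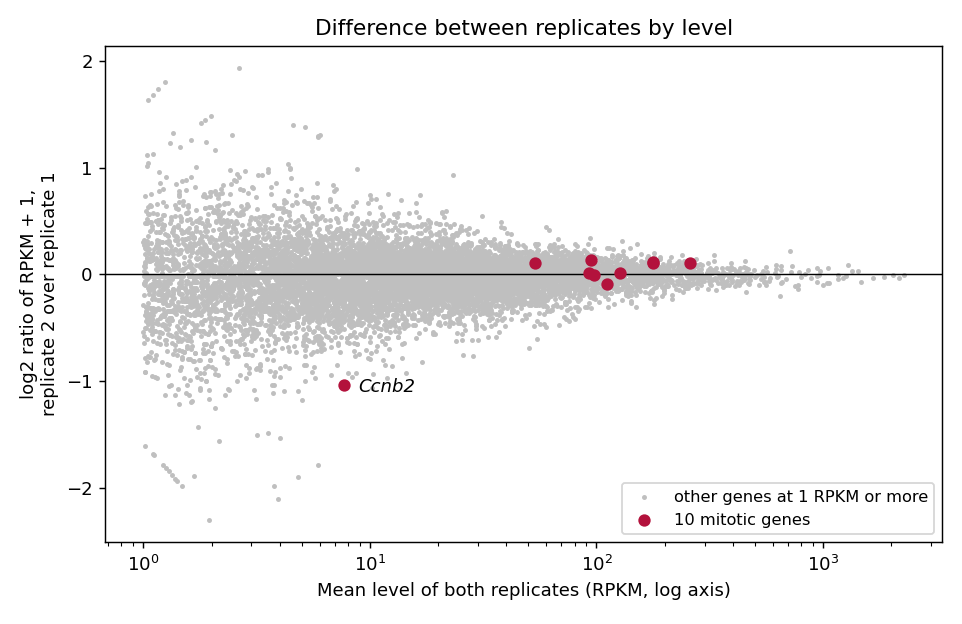
Log2 ratio of RPKM + 1, replicate 2 over replicate 1, against mean RPKM (log axis) for all genes at 1 RPKM or more (grey) and the 10 members (red). The 9 abundant members lie between -0.09 and 0.14, and Ccnb2 lies at -1.03.

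Other mitotic genes were detected throughout, with a lower median. The 7 lists of Cdk1 regulators, spindle checkpoint, Aurora partners, anaphase-promoting complex, cohesin and condensin, kinetochore, and spindle and cytokinesis genes held 90 measured genes besides the members. All 90 reached 1 RPKM, 39 (43.3%) reached 50 RPKM and 14 (15.6%) reached 100 RPKM, with a median of 43.9 ± 0.228 RPKM. By mean level none of the 90 lay above Ccnb1 and 5 lay below Ccnb2. Since Ccnb2 was uneven, 12 lay below it in replicate 1 and 4 in replicate 2. None passed a 1.5-fold ratio of RPKM + 1 between replicates. In RPKM without the added 1, Anln (1.38 and 0.787 RPKM), Ska2 (4.22 and 2.76 RPKM) and Anapc10 (10.5 and 16.2 RPKM) passed it.

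Transcripts of the machinery that Cdc20 switches on were detected for every gene examined. All 18 genes of the anaphase-promoting complex and its partners reached 1 RPKM, with a median of 51.5 ± 0.575 RPKM. The subunit gene Anapc5 (239 ± 11.2 RPKM), the ubiquitin chain-elongating enzyme gene Ube2s (171 ± 5.31 RPKM) and the inhibitor gene Fbxo5 (Emi1, 81.3 ± 0.524 RPKM) were highest. The small subunit genes Anapc16 (10.9 ± 1.94 RPKM) and Anapc11 (9.86 ± 0.432 RPKM) were lowest. Its target Pttg1 (securin) stood at 75.2 ± 4.58 RPKM and separase (Espl1) at 36.7 ± 0.705 RPKM, both picked with their values known.

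Levels of chromosome structure, kinetochore and spindle genes ran from 1.08 to 255 RPKM. All 14 measured cohesin, condensin and separase genes reached 10 RPKM (list median 71.4 ± 2.77 RPKM), led by the topoisomerase gene Top2a at 255 ± 7.85 RPKM, the cohesin gene Smc3 at 153 ± 2.60 RPKM and the condensin gene Smc4 at 114 ± 1.78 RPKM. The lowest were the cohesin subunit gene Stag1 (30.7 ± 1.44 RPKM) and the shugoshin gene Sgo2 (20.4 ± 2.39 RPKM). Of 16 kinetochore genes 15 reached 10 RPKM, with a median of 33.97 ± 1.75 RPKM. Spc24 (102 ± 2.74 RPKM), Pmf1 (70.3 ± 9.40 RPKM) and Cenpt (60.5 ± 10.2 RPKM) were the highest (the deposited row of Spc24 has the symbol Spc24-ps1 and was matched by its gene identifier, which RefSeq names Spc24), with Mis12 (11.8 ± 0.518 RPKM) and Ska2 (3.49 ± 1.03 RPKM) the lowest. Of 16 spindle and cytokinesis genes 13 reached 10 RPKM, with a median of 45.1 ± 1.10 RPKM. The midzone gene Prc1 (184 ± 10.7 RPKM), Nusap1 (103 ± 6.41 RPKM) and the kinesin gene Kif22 (101 ± 5.41 RPKM) led them. The cytokinesis genes Racgap1 (3.99 ± 0.181 RPKM) and Anln (1.08 ± 0.416 RPKM) were the lowest, both below Ccnb2.

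Factors known to drive or repress mitotic transcription were led by Mybl2, which joins MuvB to activate G2 genes, at 158 ± 4.84 RPKM. The repressor E2f4 (70.7 ± 7.52 RPKM) and the NF-Y subunit Nfyb (69.8 ± 4.38 RPKM) came next. Foxm1, picked with its value known, stood at 24.6 ± 0.755 RPKM. The MuvB subunit Lin9 (2.35 ± 0.0412 RPKM) and the pocket protein gene Rbl2 (2.20 ± 0.109 RPKM) were the lowest of the 14, all of them detected, with a median of 18.8 ± 0.117 RPKM. A CHR match stood in 37 of 74 promoters (50.0%) of the other mitotic genes, in 1 of 12 promoters of the DNA replication list and in 0 of 7 of the G1 list. At least 1 CCAAT box stood in 68.9%, 75.0% and 42.9% of these promoters in the same order, against 62.5% of the members. For 2 or more boxes the shares were 40.5%, 41.7% and 14.3%, against 50.0% of the members.

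Beside the other phases of the cycle the mitotic median was close to that of replication genes and above that of G1 genes. The 15 DNA replication genes, all detected, had a median of 110.0 ± 2.05 RPKM, led by Pcna (427 ± 20.1 RPKM), Mcm2 (232 ± 8.75 RPKM) and Mcm7 (194 ± 5.78 RPKM), with Gins1 (33.7 ± 1.15 RPKM) and Rrm2 (13.5 ± 0.188 RPKM) lowest. The 11 G1 cyclins, kinases and inhibitors, of which 10 were detected, had a median of 29.4 ± 3.93 RPKM. The mitotic median lay above the G1 median by 1.803 ± 0.16 on the log2(RPKM + 1) scale (SD, n = 2), from 1.69 in the first library to 1.92 in the second. Within the G1 list Cdk4 (306 ± 2.19 RPKM), the kinase of D-type cyclins, lay above every mitotic member. Ccnd3 (126 ± 1.505 RPKM) was close to Ccna2, and Ccne1 (71.9 ± 1.38 RPKM) came next. Ccnd2 (2.59 ± 1.69 RPKM) and Cdkn2a (0.678 ± 0.00945 RPKM) were lowest.

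**Figure D4:**
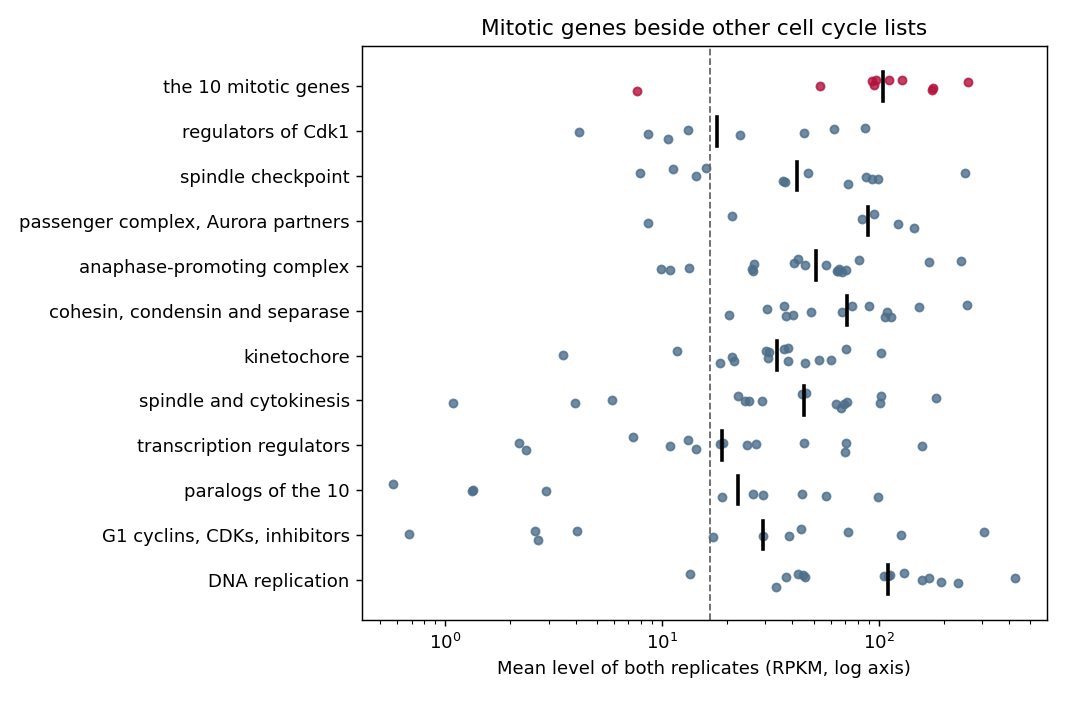
Mean RPKM of both replicates (log axis) for each gene of the mitotic group (red) and of other lists (blue), with the median of the plotted means as a black bar and the median of genes at 1 RPKM or more as a dashed line. The mitotic group and the DNA replication genes have the highest medians of the lists plotted, and Ccnb2 stands apart from the other mitotic genes.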

How the data were processed

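RNA sequencing of wild-type rat embryonic stem cells in 2 libraries was analysed from a table of RPKM values that the authors deposited, whose columns carry the sample titles. The submitters' processing notes name CASAVA 1.8, TopHat 1.4.0 and the rn5 build. Which counting tool and annotation were used, and how multiply mapped reads were treated, is not given in the sources used here. Rows were summed by Entrez identifier.

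No count model was applied to these RPKM values. Differences are on log2(RPKM + 1), where changes of low genes appear smaller than they are, and SDs are over 2 replicates. Read totals were sought within a set range by the number of values they made whole, with the locus as gene model. Multiples of such a total keep the same values whole. The best total, or its smallest whole fraction that kept nearly as many values whole, was taken. The totals taken made 527 of 2700 rows under 6000 bp whole in replicate 1 and 525 of 2688 in replicate 2. With them, 72.7% of 12583 genes above 0 in both libraries came out as whole reads (relative tolerance 3e-07, shortest model from 60 to 6000 bp). A recovered model may be an exact fraction of the true one, and intervals cover counting error only. In a run on simulated libraries the true model lengths were given when the read totals were sought. That run could not check the locus as a stand-in for the model, nor models above 6000 bp.

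The members and lists were chosen with earlier results of these data known. All members are named, with every measured gene of 4 lists (paralogs, Cdk1 regulators, checkpoint complex, Aurora partners) and the 3 highest and 2 lowest of the other lists. Some symbols were matched through RefSeq gene identifiers. Cdc20b and Ncaph were not analysed here. With 1 group of 2 samples no likeness of pattern between genes could be measured. Promoters came from RefSeq (GRCr8), and no coordinates were converted between builds. Alternatives were other pseudocounts, detection minimums, row choices, means for medians, rescaling and each replicate alone. Software was scipy 1.17.1, pandas 2.3.3, numpy 2.4.6 and matplotlib 3.10.9 under Python 3.11.15.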

Additional observations from a re-analysis of the deposited data

How the results depend on the processing

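No paired analysis was possible because the series holds 1 group. With 2 replicates a single one always lies within 1 SD of their mean, and the choice of row per gene cannot move the members, which have 1 row each, so neither tests the stability of the member values. With a pseudocount of 0.1, 5 of 7 differences moved by less than the SD between replicates. With a single replicate the mitotic median ranged from 103 to 106 RPKM, its distance above detected genes from 2.57 to 2.59 (log2), its distance above G1 genes from 1.69 to 1.92, cyclins against Cdk1 from -0.46 to -0.40, Ccnb1 against Ccnb2 from 4.42 to 5.56, Aurka against Aurkb from 0.79 to 0.82, Aurkb against its partners from -0.97 to -0.81 and the checkpoint complex spread from 1.41 to 1.42. Means of log2 values in place of medians gave a mitotic level of 91.7 RPKM, a distance of 2.38 above detected genes and 2.17 above G1 genes, and a replicate ratio of the members of -0.053, reversed in sign from 0.060. That median was 0.061 with a pseudocount of 0.1, 0.074 and 0.077 after rescaling or centring and 0.10 without Ccnb2, and has no SD between replicates to set these against. The distance above detected genes was 2.94 with a minimum of 0.3 RPKM, 2.24 with 3 RPKM, 6.10 with none, and 2.64 with a pseudocount of 0.1, which also moved the checkpoint complex spread to 1.43. Keeping only G1 genes at 1 RPKM or more gave 1.61. A minimum of 50 RPKM in place of 100 took the count of members from 5 to 9. Leaving out Ccnb2, chosen after the data were seen, turned cyclins against Cdk1 to 0.12. With gene models up to 20000 bp, also chosen later, the reads test called 114 of 10040 genes. The adjusted p of Ccnb2 was 0.190 in that test. With doubled read totals, which give the counts of gene models 2 times as long, the adjusted p was 0.00572, past the threshold. Depth limits the genes with few reads, Ccnb2 and the germ-line paralogs among them. The sign of the cyclin mean against Cdk1 and that of the mean replicate ratio rest on Ccnb2, where a cause was not tested.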
